A study of Mus musculus with 6 samples.

Results

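The dual-specificity phosphatases (Dusp genes), the Sprouty adaptors and the Spred adaptors were followed through osteoblast induction of MC3T3-E1, a mouse calvarial line of bone-forming precursor cells. Members were all genes whose symbol is Dusp plus a number, Spry1 to Spry4 or Spred1 to Spred3 and that are named alone by a probe set of the array. This gave 31 genes, read by 34 probe sets, among the 19938 genes tested. They comprised 10 classical MAP kinase phosphatases, 14 atypical dual-specificity phosphatases, 4 Sprouty genes and 3 Spred genes. The differentiated group held 3 arrays of cells induced from confluence for 14 days in DMEM with 0.1 µM dexamethasone, 0.2 mM ascorbic acid-2-phosphate, 10 mM β-glycerophosphate, 1 mM sodium pyruvate and 10% serum. The undifferentiated group held 3 arrays of cells maintained in ascorbate-free α-MEM with 10% serum. Both groups are the same line, recorded as C57BL/6 and newborn, with no genetic change named. The base medium, the time after confluence and each added compound changed at once, so their shares in a difference cannot be told apart. The replicates are labelled independent, with no word on separate cultures, and p-values measure only the spread between these samples, which may be technical.

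MAP kinases (ERK, JNK and p38) are switched on when a threonine and a tyrosine of their activation loop are phosphorylated, and the classical Dusp enzymes switch them off by removing both phosphates. Several of these genes are transcribed in answer to the kinases that their products inactivate, which makes a negative feedback loop. Sprouty and Spred proteins act further up and restrain RAS and RAF after a growth factor receptor has been engaged. Atypical Dusp enzymes share the catalytic fold but lack the kinase-docking region of the classical enzymes, and many act on other substrates, including RNA and lipids. In osteoblast precursors, FGF and ERK signalling is known to act on both proliferation and maturation.

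The deposited values are log2 intensities with every probe set shifted so that its median across the 6 arrays is 0 (largest departure 5e-07). A value of 1.00 therefore lies 2-fold above a gene's own midpoint, and levels cannot be compared between genes or called present or absent. For a gene read by 1 probe set whose groups are separate, the same centring makes the lowest array of the upper group and the highest array of the lower group mirror images about 0. Dusp8, Dusp12 and Spred2 are averages of 2 probe sets each, and their medians need not be 0. In these bulk RNA samples, a change in the share of cells expressing a gene and a change in RNA per cell cannot be told apart.

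Dusp1, Dusp4, Dusp5, Dusp6, Spry1, Spry2 and Spry4 were at least 2-fold higher in differentiated cells. All are known as transcripts induced by ERK signalling, and Dusp1 also by glucocorticoids. Kinase activity was not measured, and what raised these transcripts was not tested. Changes of the atypical enzymes centred near the median of all genes. Of the 31 genes, 15 were higher, 2 were lower and 14 did not pass (limma, Benjamini-Hochberg adjusted p under 0.05 over all genes). Among all genes tested, 35.5% passed, 16.4% higher and 19.1% lower. Classical phosphatases had 5 of 10 higher and 1 lower, with a median log2 fold change of 0.40. Atypical phosphatases had 4 of 14 higher and 1 lower, with a median of 0.03, against 0.02 for all genes. Of the 7 Sprouty and Spred genes, 6 were higher, with a median of 0.77. Changes of at least 2-fold were seen in 7 of the 31 genes, all of them rises (4 classical phosphatases and 3 Sprouty genes), where 4.81% of all genes changed that much in either direction. The 3 arrays of one group lay wholly to one side of the other for 19 of the 31 genes, against 46.2% of all genes. The difference between the families was not tested.

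**Figure D1:**
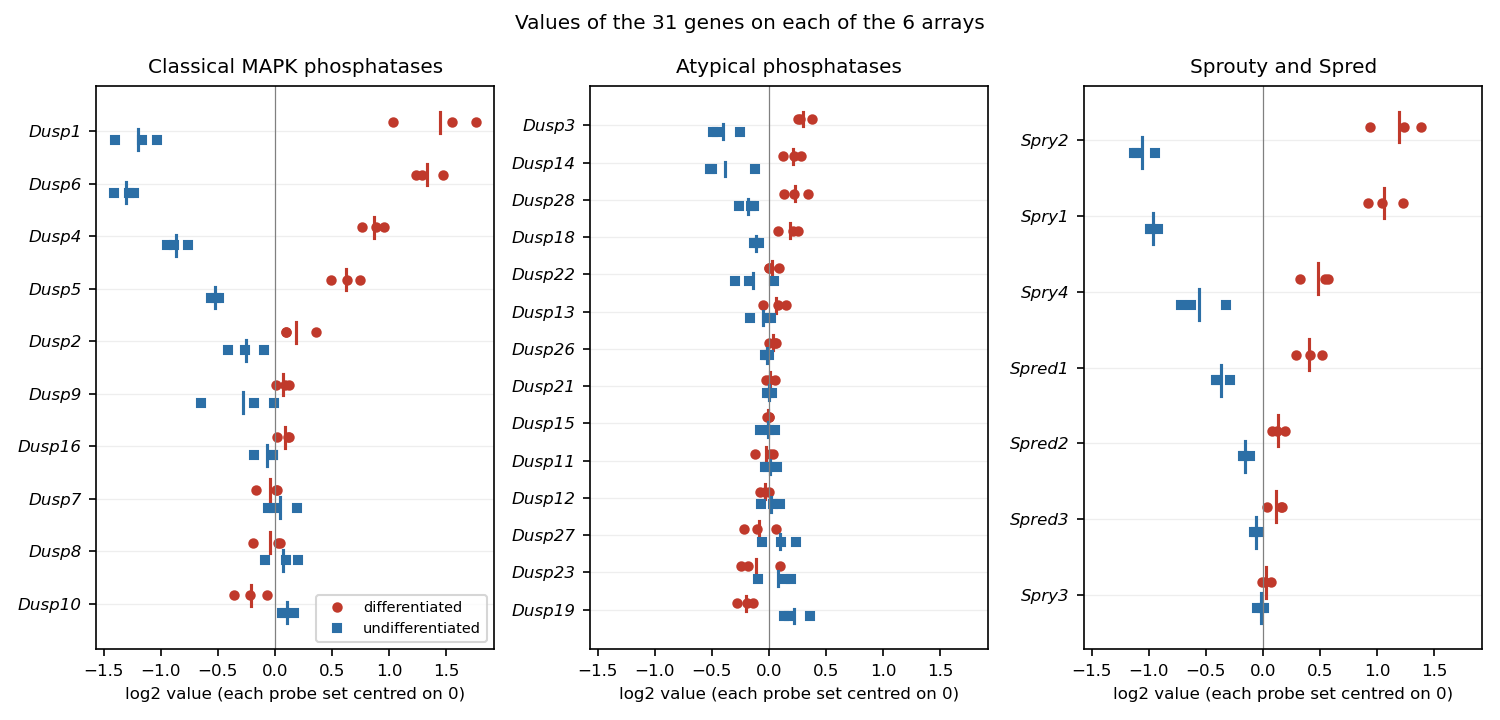
Log2 value (horizontal axis, each probe set centred on a median of 0, the 2 probe sets of Dusp8, Dusp12 and Spred2 averaged) of each of the 31 genes on the 3 differentiated arrays (red circles) and the 3 undifferentiated arrays (blue squares), with short vertical lines at the group means. Dusp1, Dusp6, Spry2 and Spry1 have the widest gaps between groups, and the points of most atypical phosphatases overlap.

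The promoter windows of Dusp1, Dusp5 and Dusp8 are shown because they held the only full cAMP response elements (CRE) and CArG boxes found among the members. A CRE is the site of CREB and ATF factors, and a CArG box that of serum response factor (SRF), which acts in immediate early transcription. Windows are 250 bases before to 50 bases after the annotated gene start, from RefSeq on GRCm38.p6, and positions count from that start. The Dusp1 window is chr17:26508423-26508722 on the minus strand, the Dusp5 window chr19:53528895-53529194 on the plus strand and the Dusp8 window chr7:142095235-142095534 on the minus strand. Capitals mark the motif matches.
Dusp1: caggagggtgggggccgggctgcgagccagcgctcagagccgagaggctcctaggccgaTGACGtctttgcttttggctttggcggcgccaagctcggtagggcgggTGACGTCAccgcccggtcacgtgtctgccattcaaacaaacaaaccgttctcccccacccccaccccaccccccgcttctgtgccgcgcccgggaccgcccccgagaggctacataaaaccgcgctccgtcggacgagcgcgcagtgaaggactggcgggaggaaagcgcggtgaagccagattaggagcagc
Dusp5: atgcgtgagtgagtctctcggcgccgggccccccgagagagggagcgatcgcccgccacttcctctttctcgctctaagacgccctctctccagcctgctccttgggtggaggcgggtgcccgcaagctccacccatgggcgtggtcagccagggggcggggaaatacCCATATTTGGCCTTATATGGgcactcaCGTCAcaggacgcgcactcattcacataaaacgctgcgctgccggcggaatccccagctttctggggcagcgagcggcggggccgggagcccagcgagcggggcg
Dusp8: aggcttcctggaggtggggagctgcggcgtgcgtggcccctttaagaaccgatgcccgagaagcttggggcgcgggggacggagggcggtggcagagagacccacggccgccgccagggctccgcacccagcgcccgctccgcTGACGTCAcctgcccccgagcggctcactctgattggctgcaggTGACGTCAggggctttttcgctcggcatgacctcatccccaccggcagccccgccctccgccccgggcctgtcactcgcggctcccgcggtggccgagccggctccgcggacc
In Dusp1 the capitals are a short CRE at -191 and a full CRE at -143. In Dusp5 they are a pair of abutting CArG boxes at -82 (CCATATTTGG) and -72 (CCTTATATGG), followed by a short CRE read on the other strand at -55. In Dusp8 they are full CREs at -107 and -63.

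Motifs were searched on both strands in all 32851 windows of the table, of which 26 belong to 23 of the 31 genes. The letters were TGACGTCA for the full CRE, TGACG for the short CRE (also counted inside a full CRE), TGANTCA for AP-1, AGAACA for the short glucocorticoid response element (GRE), CCGGAAGT for ETS factors and TATAAA for the TATA box. The CArG box was searched by its usual pattern. The full GRE was searched only in an exact form, AGAACA and TGTTCT with 3 bases between. That form is so rare that its absence from a window says little. A full CRE was in 2 of the 26 member windows and in 1.79% of all windows, and a CArG box in 1 of 26 and in 1.63%. A short CRE was in 8 of 26 and in 20.8%, a short GRE in 3 of 26 and in 19.0%, and AP-1 in 1 of 26 and in 7.81%. The ETS letters stood in 3.89% of all windows, the TATA box in 13.6% and the full GRE in 3 windows, and none of these was in a member window. The windows of Dusp6, Spry1 and Spry2 held none of the letters searched. Member windows were rich in CpG, with a median of 23.5 CpG and 61.2% G and C, against 7 CpG and 52.7% over all windows. No window was available here for Dusp4, Dusp9, Dusp15, Dusp19, Dusp21, Dusp26, Spry3 or Spry4.

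**Figure D2:**
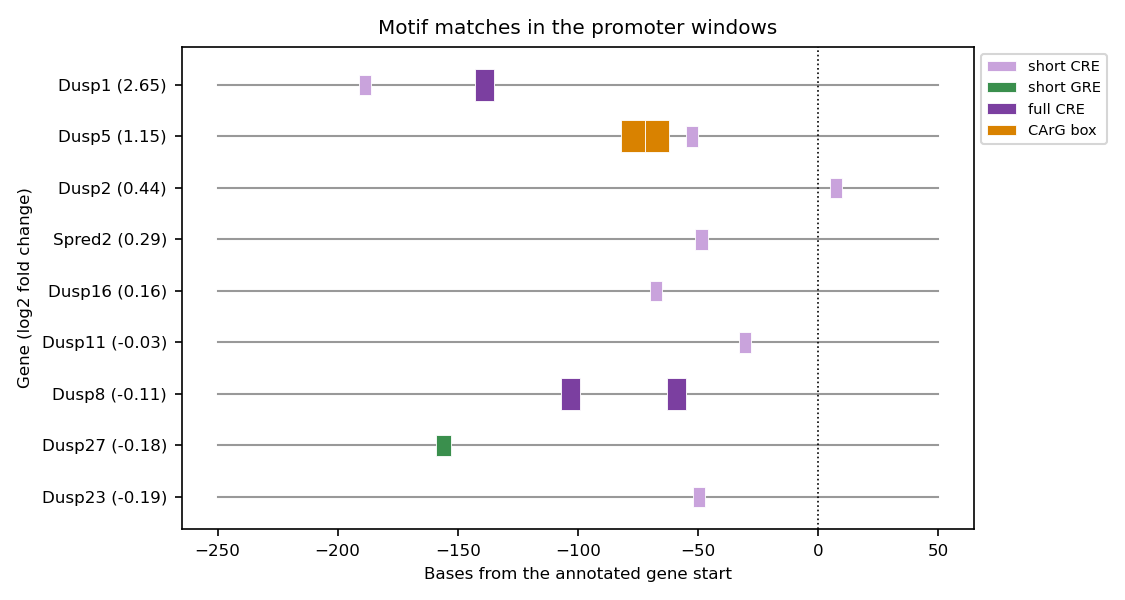
Positions of motif matches (horizontal axis, bases from the annotated gene start) in the 9 genes with a match among the 22 that have 1 window, ordered from the highest log2 fold change (top) to the lowest. Dusp1 at 2.65 and Dusp8 at -0.11 both carry full CREs, and Dusp5 alone carries CArG boxes. Short CREs inside a full CRE are hidden behind it.

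The inducible nuclear phosphatases rose, all 4 of 4, with a median log2 fold change of 1.44, where 16.4% of all genes were called higher. Dusp1 (MKP-1, probe set 10449284), which inactivates p38, JNK and ERK in the nucleus and is a known glucocorticoid-induced gene, was at 1.76, 1.03 and 1.55 on the differentiated arrays, against -1.16, -1.03 and -1.40 on the undifferentiated ones. The groups did not overlap, and differentiated replicate 2 lay well below the other two. Dusp1 was 6.27-fold higher (log2 fold change 2.65 ± 0.17, SE, 3 arrays per group, adjusted p = 3.35e-06), which ranked 41 of 19938 genes. It also had the widest range within a group of all 31 genes, 0.73 over the differentiated arrays.

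Dusp4 (MKP-2, probe set 10571312), a nuclear enzyme acting on ERK and JNK, was at 0.96, 0.76 and 0.88 on the differentiated arrays, against -0.89, -0.76 and -0.95 on the undifferentiated arrays. The replicates of each group were close and the groups far apart. Dusp4 was 3.32-fold higher (1.73 ± 0.07, adjusted p = 2.57e-07). Dusp5 (probe set 10463945), which binds ERK in the nucleus and is selective for it, was at 0.74, 0.64 and 0.49 on the differentiated arrays, against -0.56, -0.52 and -0.49 on the undifferentiated ones. The groups were separate, with the wider spread among differentiated arrays. Dusp5, whose window carries the paired CArG boxes, was 2.21-fold higher (1.15 ± 0.07, adjusted p = 2.50e-06). Dusp2 (PAC-1, probe set 10475782), best known from activated immune cells, was at 0.36, 0.10 and 0.10 on the differentiated arrays, against -0.41, -0.26 and -0.10 on the undifferentiated ones. Its groups just separated, and the rise was the smallest of the nuclear enzymes (1.36-fold, 0.44 ± 0.10, adjusted p = 0.00657).

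Of the 3 cytoplasmic ERK-directed phosphatases, Dusp6 rose and Dusp7 and Dusp9 did not pass. Dusp6 (MKP-3, probe set 10366043), the phosphatase that holds and inactivates ERK in the cytoplasm and is a common readout of FGF signalling, was at 1.47, 1.24 and 1.29 on the differentiated arrays, against -1.24, -1.28 and -1.41 on the undifferentiated ones. The replicates were tight and the gap between groups was many times their spread. Dusp6 was 6.24-fold higher (2.64 ± 0.08, adjusted p = 4.29e-08), ranking 42 of 19938, next to Dusp1 and with a smaller error. Dusp7 (MKP-X) was at 0.01, 0.02 and -0.17 on the differentiated arrays, against 0.20, -0.06 and -0.01 on the undifferentiated ones. These overlap, and the log2 fold change was -0.09 with a 95% interval of -0.28 to 0.10 (adjusted p = 0.484). Dusp9 (MKP-4), an X-linked gene, was at 0.12, 0.08 and 0.01 on the differentiated arrays, against -0.65, -0.19 and -0.01 on the undifferentiated ones. The undifferentiated arrays spread over 0.64, and the change of 0.35 ± 0.14 did not pass (adjusted p = 0.0846). Over the alternatives Dusp9 ranged from 0.02 after cyclic loess (adjusted p = 0.885) to 0.49 without undifferentiated replicate 3, where it passed (adjusted p = 0.0133), and without undifferentiated replicate 1 it was 0.17. Differences in change between Dusp6 and its 2 relatives were not tested.

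Of the 3 phosphatases that prefer JNK and p38, 1 fell and 2 did not pass, where 19.1% of all genes were called lower. Dusp10 (MKP-5, probe set 10352448) was at -0.21, -0.36 and -0.07 on the differentiated arrays, against 0.17, 0.09 and 0.07 on the undifferentiated ones. The groups did not overlap, and Dusp10 was 1.25-fold lower (-0.32 ± 0.08, adjusted p = 0.0105). Dusp16 (MKP-7) had a log2 fold change of 0.16 with a 95% interval of 0.01 to 0.31, and did not pass after adjustment (adjusted p = 0.0911). Dusp8, the gene with paired full CREs, had a log2 fold change of -0.11 (95% interval -0.32 to 0.09, adjusted p = 0.405). Its pair of probe sets lay at -0.22 and 0.00, and neither passed.

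Sprouty genes rose in 3 of 4 cases, where 16.4% of all genes were called higher. Spry2 (probe set 10422227), an inhibitor of RAS and RAF activation by FGF, was at 1.39, 0.94 and 1.24 on the differentiated arrays, against -1.13, -0.94 and -1.10 on the undifferentiated ones. As for Dusp1, differentiated replicate 2 was the lowest of its group. Spry2 was 4.75-fold higher (2.25 ± 0.11, adjusted p = 5.70e-07, rank 72 of 19938). Spry1 (probe set 10491721), which acts at the same steps, was at 1.04, 1.23 and 0.92 on the differentiated arrays, against -0.92, -0.99 and -0.99 on the undifferentiated ones. Here differentiated replicate 2 was the highest, and the undifferentiated arrays lay within 0.07 of each other. Spry1 was 4.08-fold higher (2.03 ± 0.08, adjusted p = 1.70e-07, rank 96).

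Spry4 (probe set 10458555), also an ERK-induced inhibitor of the pathway, was at 0.57, 0.54 and 0.33 on the differentiated arrays, against -0.72, -0.63 and -0.33 on the undifferentiated ones. Replicate 3 lay nearest the midpoint in both groups, and the groups stayed apart. Spry4 was 2.05-fold higher (1.04 ± 0.11, adjusted p = 7.01e-05). Spry3 was at -0.01, 0.07 and 0.02 on the differentiated arrays, against -0.01, -0.05 and 0.01 on the undifferentiated ones. Its change of 0.04 had a 95% interval of -0.08 to 0.16 (adjusted p = 0.592), and whether the gene was expressed cannot be read from centred values.

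All 3 Spred genes, whose products bring the RAS inactivator neurofibromin to the membrane, were called higher, at smaller sizes. Over all genes, 16.4% were called higher. Spred1 (probe set 10474671) was at 0.41, 0.52 and 0.29 on the differentiated arrays, against -0.29, -0.40 and -0.41 on the undifferentiated ones. The groups were separate by a margin wider than either group's range, and Spred1 was 1.71-fold higher (0.77 ± 0.07, adjusted p = 3.07e-05). Spred2 was at 0.08, 0.20 and 0.13 on the differentiated arrays, against -0.17, -0.12 and -0.18 on the undifferentiated ones. These did not overlap, and Spred2 was 1.22-fold higher (0.29 ± 0.05, adjusted p = 0.00292), with its pair of probe sets at 0.25 and 0.33. Spred3 was at 0.15, 0.04 and 0.16 on the differentiated arrays, against -0.08, -0.04 and -0.06 on the undifferentiated ones. It was 1.13-fold higher (0.17 ± 0.06, adjusted p = 0.0389). That call was lost when any array other than differentiated replicate 2 was left out (adjusted p = 0.0692 to 0.132). Nf1, which encodes neurofibromin, was 1.18-fold higher (0.24 ± 0.06, adjusted p = 0.00991).

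**Figure D3:**
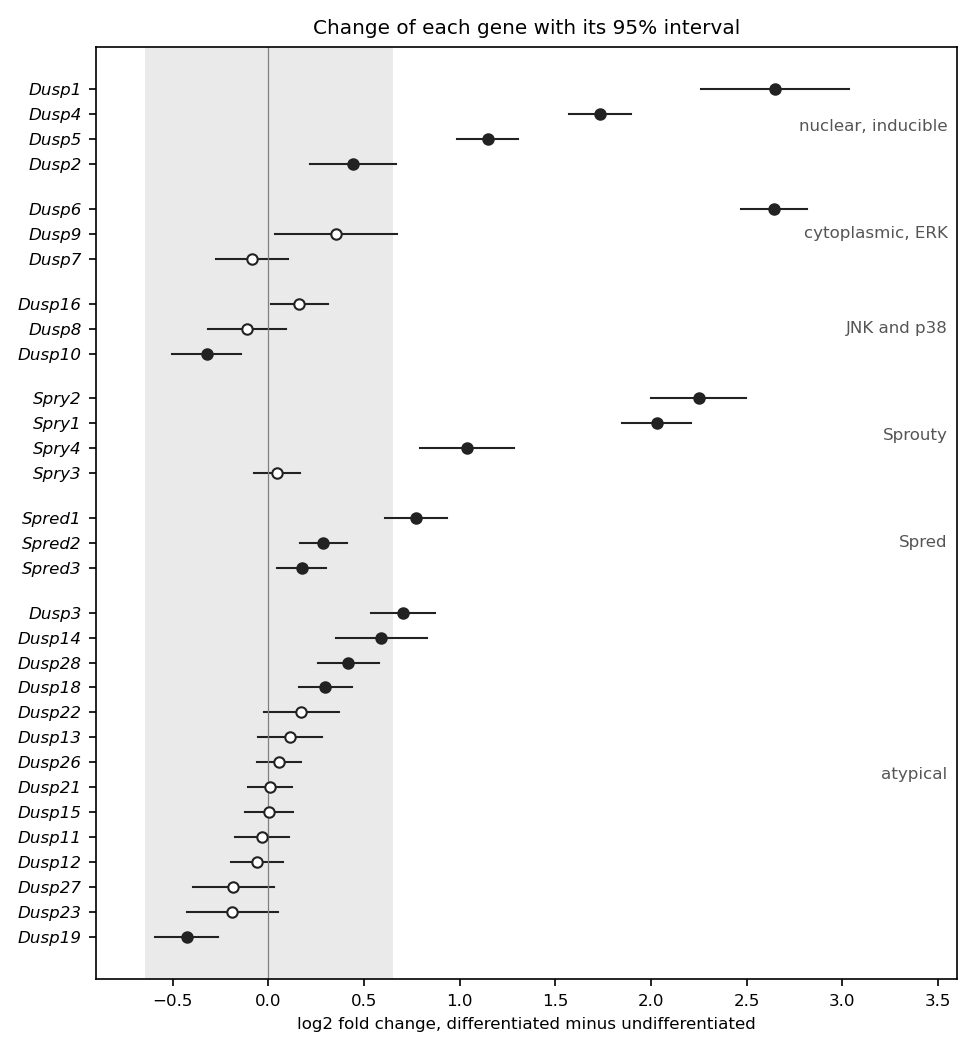
Log2 fold change, differentiated minus undifferentiated (horizontal axis), of each gene with its 95% interval from limma, by family and preferred substrate. Filled points passed at an adjusted p under 0.05 and open points did not, and the grey band spans the 5th to 95th percentile of all genes, -0.65 to 0.65. Most nuclear phosphatases, Dusp6, most Sprouty genes and Spred1 lie right of the band, as does 1 atypical gene, Dusp3 at 0.70.

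Among the atypical phosphatases the changes ran from -0.43 to 0.70, and none reached 2-fold. Within that range also lay the JNK- and p38-directed classical enzymes (-0.32 to 0.16), Dusp2, Dusp7, Dusp9, Spry3, Spred2 and Spred3. Dusp3 (VHR, probe set 10391513), a small enzyme reported to act on ERK and JNK, was at 0.26, 0.27 and 0.38 on the differentiated arrays, against -0.26, -0.49 and -0.46 on the undifferentiated ones. The groups were separate, and Dusp3 was 1.63-fold higher (0.70 ± 0.07, adjusted p = 7.74e-05). Dusp14 (MKP-6, probe set 10389238), which dampens TAK1 signalling in T cells, was at 0.22, 0.28 and 0.12 on the differentiated arrays, against -0.50, -0.12 and -0.52 on the undifferentiated ones. Undifferentiated replicate 2 stood apart from its group, nearer to the differentiated arrays. Dusp14 was 1.51-fold higher (0.59 ± 0.10, adjusted p = 0.00185), but after cyclic loess scaling it was at 0.34 and did not pass (adjusted p = 0.0939). Dusp28 was at 0.22, 0.13 and 0.35 on the differentiated arrays, against -0.27, -0.15 and -0.13 on the undifferentiated ones. It was 1.33-fold higher (0.42 ± 0.07, adjusted p = 0.00138), with no overlap. Dusp18, whose product is found in mitochondria, was at 0.08, 0.26 and 0.21 on the differentiated arrays, against -0.08, -0.12 and -0.13 on the undifferentiated ones. It was 1.23-fold higher (0.30 ± 0.06, adjusted p = 0.00417), also with no overlap.

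Dusp19 (SKRP1, probe set 10473224), which binds the JNK kinase MKK7, was at -0.20, -0.14 and -0.28 on the differentiated arrays, against 0.36, 0.18 and 0.14 on the undifferentiated ones. The groups were separate, and Dusp19 was 1.34-fold lower (-0.43 ± 0.07, adjusted p = 0.00145). It was the largest fall of the 31 genes. The other 9 atypical genes did not pass, and their 95% intervals reached from -0.43 to 0.37 on the log2 scale. Dusp22 (JSP1, a modulator of JNK), at 0.17, ranged over the alternatives from 0.04 after cyclic loess (adjusted p = 0.816) to 0.27 without undifferentiated replicate 2, where it passed (adjusted p = 0.0204). Without undifferentiated replicate 1 Dusp22 was at 0.09. The RNA phosphatase gene Dusp11 was at -0.03, Dusp12 at -0.06, Dusp13 at 0.11, Dusp15 at 0.00, Dusp21 at 0.01 and Dusp26 at 0.06. Dusp23 was at -0.19 and Dusp27, whose product lacks the catalytic cysteine, at -0.18. The arrays of both groups overlapped for all 9, which were set apart by the test on these same values. Over all genes, the groups did not overlap for 46.2%.

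Within the differentiated group, replicate 1 was the highest array for 6 of the 7 genes changed at least 2-fold, and replicate 2 the lowest for 4 of them. The order differed by gene, as Spry1 shows. The immediate early gene Ier3 ran in the same order as Dusp1. Ier3 was at 1.57, 1.05 and 1.34 on the differentiated arrays, against -1.05, -1.05 and -1.20 on the undifferentiated ones. Phlda1, another transcript raised by ERK signalling, ran in a different order, at 1.16, 0.98 and 0.93 on the differentiated arrays. How common each order is over all genes was not counted. Over all genes the differentiated arrays had similar residual spread around their group mean, with SDs of 0.0745 to 0.0783, against 0.0817 to 0.0947 for the undifferentiated arrays. What set the order was not tested.

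Transcripts commonly raised by ERK signalling were mostly higher in differentiated cells. Of 19 measured members of that list, 13 rose and 6 did not pass, with a median log2 fold change of 0.47. Among all genes tested, 16.4% were called higher. The lists were chosen with earlier results of these data known. Egr1 was 6.74-fold higher (2.75 ± 0.08), Ier3 5.35-fold (2.42 ± 0.12), Phlda1 4.17-fold (2.06 ± 0.08) and Fosb 3.41-fold (1.77 ± 0.09), with adjusted p-values of 1.02e-06 or lower. These genes also answer other stimuli than ERK. The ETS factors Etv1 (0.46 ± 0.09, adjusted p = 0.00271) and Etv5 (0.42 ± 0.06, adjusted p = 7.02e-04), which often follow Dusp6 and Sprouty downstream of FGF receptors, rose by less. Their relative Etv4 was at 0.28 ± 0.10 and did not pass (adjusted p = 0.0699), although it passed with the replicate number as a block (adjusted p = 0.00637) and without differentiated replicate 1 (0.0272), in a range of 0.00637 to 0.213 over the alternatives.

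Other brakes on receptor kinases, RAS and MAP kinases had 10 of 20 members higher, 1 lower and 9 not past the test, with a median of 0.26. Of all genes tested, 16.4% were called higher and 19.1% lower. Errfi1, a feedback inhibitor of the EGF receptor, led them at 9.80-fold (3.29 ± 0.06, adjusted p = 6.65e-09). The RAS GTPase-activating genes Rasa3 (1.36 ± 0.08) and Rasa1 (1.20 ± 0.07) and Il17rd, the FGF antagonist Sef (1.15 ± 0.08), also rose, with adjusted p-values of 5.18e-06 or lower. Rasal2, another RAS GTPase-activating gene, fell by 0.43 (SE 0.06, adjusted p = 4.15e-04). Of 16 FGF ligands and receptors, 5 rose and 11 did not pass. The 31.2% called compare with 35.5% of all genes called in either direction and 16.4% called higher. Fgf2 (3.17-fold, 1.66 ± 0.11), Fgfr1 (3.15-fold, 1.65 ± 0.09), Fgfr2 (2.55-fold, 1.35 ± 0.06) and the decoy-like receptor Fgfrl1 (1.30-fold, 0.37 ± 0.05) were the largest rises, with adjusted p-values of 5.51e-04 or lower.

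Genes of the kinase cascades themselves had more falls than rises, where 16.4% of all genes were called higher and 19.1% lower. Of 15 measured genes of the RAS-ERK cascade, 2 rose, 7 fell and 6 did not pass, with a median of -0.18 against 0.02 for all genes. The adaptor Shc1 rose (0.85 ± 0.06, adjusted p = 4.47e-06). The falls were led by the ERK-activated kinase Rps6ka3 (-0.65 ± 0.07), Braf (-0.56 ± 0.07) and Nras (-0.48 ± 0.07), with adjusted p-values of 4.78e-04 or lower. Of the ERK kinases, Map2k2 fell (-0.34 ± 0.05, adjusted p = 8.45e-04) and Map2k1 was at -0.18 ± 0.06 and did not pass (adjusted p = 0.0579), although it passed with array weights (0.0408) and without undifferentiated replicate 3 (0.0499), in a range of 0.0408 to 0.176 over the alternatives. Of 27 genes of the JNK, p38 and ERK5 cascades, 4 rose, 11 fell and 12 did not pass, with a median of -0.18. Map3k6 (1.15 ± 0.08) and Map3k2 (0.59 ± 0.06) rose, while Mapk8, encoding JNK1 (-0.64 ± 0.06), and Mapk11, encoding p38β (-0.62 ± 0.05), fell, with adjusted p-values of 5.16e-05 or lower. Among the other MAP kinase kinases, Map2k3, an activator of p38, rose (0.47 ± 0.05, adjusted p = 1.19e-04), and Map2k4, which acts on JNK and p38, fell (-0.28 ± 0.05, adjusted p = 0.00222). Mapk14, encoding p38α, was at 0.04 (95% interval -0.09 to 0.18, adjusted p = 0.661). Phosphorylation of these kinases was not measured.

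**Figure D4:**
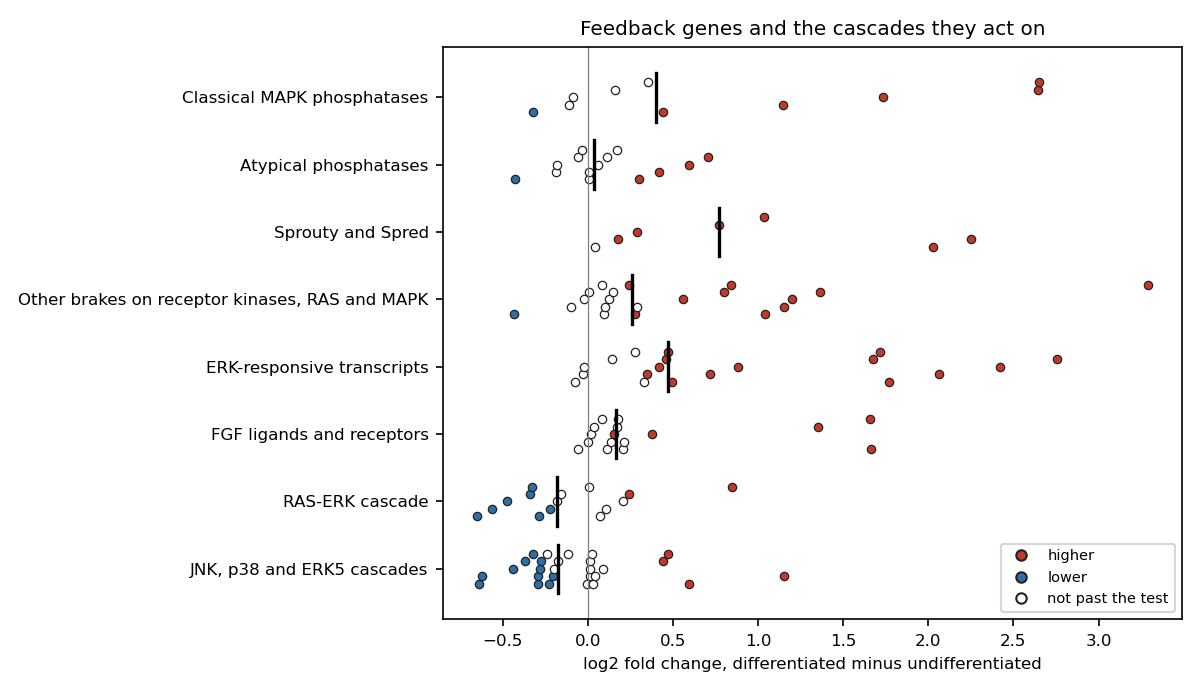
Log2 fold change, differentiated minus undifferentiated (horizontal axis), of every measured member of the 3 member families and 5 pathway lists, with a black line at each list's median. Red points rose, blue points fell and white points did not pass; rises dominate in Sprouty and Spred, the other brakes and the ERK-responsive transcripts, and falls in both cascade lists.

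Of 11 listed osteoblast markers, Runx2, Spp1, Bglap and Bglap2 had no value among the genes tested. The osteoblast label was read against the 7 measured markers, with a median log2 fold change of -0.05. Of these, 3 rose: Dmp1 (3.44 ± 0.20) and Ibsp (3.12 ± 0.09), of the mineralising matrix, and the alkaline phosphatase gene Alpl (0.96 ± 0.08), with adjusted p-values of 1.49e-05 or lower. The collagen gene Col1a1 (-0.40 ± 0.07, adjusted p = 0.00146) and the osteoblast transcription factor gene Sp7 (-0.40 ± 0.07, adjusted p = 0.00257) fell, and Sp7 did not pass after cyclic loess (adjusted p = 0.106). Col1a2 was at -0.13 and Phex at -0.05, neither past the test. Markers of other cell types, which centred values cannot call absent, had 2 of 8 macrophage genes higher, 1 of 8 endothelial, 2 of 7 adipocyte and 2 of 8 smooth muscle genes higher, and 1 of 8 epithelial genes lower. The share higher was 12.5% to 28.6% in the macrophage, endothelial, adipocyte and smooth muscle lists, against 16.4% of all genes. The share lower was 12.5% in the epithelial list, against 19.1% of all genes. The list medians ran from 0.00 to 0.09, but single genes moved far. The epithelial keratin Krt14 was 4.13-fold lower (-2.04 ± 0.11), the adipocyte gene Plin4 2.92-fold higher (1.55 ± 0.10), and the smooth muscle genes Smtn 1.99-fold (0.99 ± 0.06) and Tagln 1.65-fold higher (0.73 ± 0.07), with adjusted p-values of 4.42e-05 or lower. Smaller rises were those of the adipocyte gene Fabp4 (0.46), the macrophage genes Cd68 (0.44) and Cd14 (0.42) and the endothelial gene Vwf (0.23). The part of other cell types in the results above was not tested.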

How the data were processed

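RNA of 3 differentiated and 3 undifferentiated samples of MC3T3-E1 was hybridised to 1-colour arrays, with 1 array for each sample. Titles gave the group and the replicate number. The log2 expression values are as the authors deposited them, made with RMA per the submitters' processing notes. The centring of each probe set on 0 is seen only in the values. It leaves differences between arrays intact but removes the level, so no filter on dim probe sets was possible. Precision is limited by how many arrays there are.

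Gene names are those of the platform annotation, brought up to date with RefSeq (GRCm38.p6) through the gene ID for 21698 probe sets. Of 28856 probe sets, 21789 named 1 gene, 1621 several and 5446 none, and those with several or none were left out. Probe sets of 1 gene were averaged (999 of 19938 genes). Differentiated was compared with undifferentiated by limma's two-sided moderated test (lmFit, eBayes) over all genes, without a replicate block. P-values were adjusted by Benjamini-Hochberg and read at 0.05. The fit was tested on simulated data. R 4.3.3 and limma 3.58.1 were used.

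The members and lists were chosen with earlier results of these data known. Every member is named. From each pathway list up to 4 genes with the largest changes past the test were named, and any Map2k or Mapk gene could be named whatever its result, of which only some were. Etv1, Etv5, Etv4, Nf1, Rasal2, Sp7, Col1a2 and Phex were named after their values were seen, as were the promoters printed. Listed genes that have no value among those tested were not analysed here. Correlations of same-numbered arrays' deviations from their group means were -0.00133, 0.0692 and 0.162, so the numbers were not taken to pair the arrays. Alternatives were the replicate block, quantile, median and cyclic loess scaling, the lowest-numbered probe set, every probe set, array weights, robust eBayes and each array left out.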

Additional observations from a re-analysis of the deposited data

How the results depend on the processing

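Of the 31 genes, 27 kept their side of the threshold under all 14 alternatives; the exceptions were Spred3, Dusp14, Dusp9 and Dusp22. With the replicate number as a block, 7162 genes passed against 7070 without it. Sprouty and Spred rises then numbered 5 in place of 6, as Spred3 did not pass (adjusted p = 0.0628), and no other member's call changed with the block. Leaving out each array in turn gave 6003 to 7523 genes called, 6 to 7 classical phosphatases, 5 to 6 atypical ones and 5 to 6 Sprouty and Spred genes. The RAS-ERK cascade then had 1 to 3 genes higher. Endothelial markers had 0 to 2 higher (0 to 2 changed), and epithelial markers 0 to 1 higher (1 to 2 changed). Under cyclic loess 1 osteoblast marker was lower in place of 2, and 0 endothelial markers were higher or changed. The cause was not tested. Over the alternatives Dusp1 ran from 2.49 to 3.13 and Dusp6 from 2.57 to 2.69. Scaling left the median of all genes at 0.0161 to 0.0186. The alternatives that need a level, scanner values or a slide (filter on dim probe sets, background correction, slide block) were not run. Signal over background is unknown from these values.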
